A study of Mus musculus with 6 samples.

Results

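The SLC15 genes encode proton-coupled transporters of dipeptides, tripeptides and, for some members, histidine and bacterial peptides. The 3 genes described here, Slc15a2, Slc15a3 and Slc15a4, were taken by symbol from the authors' deposited expression table, and are 3 of 43430 genes counted. Slc15a2 was chosen by its measured KO against WT fold change and adjusted p in that table, and Slc15a3 and Slc15a4 as relatives of it. The relatives Slc15a1 and Slc15a5 are given beside them.

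RNA was sequenced from CD4+CD8+ double-positive thymocytes, sorted from the thymus of C57BL/6 mice. The KO group (3 libraries, Mettl14fl/fl; CD4-Cre+) carried floxed Mettl14 alleles with a CD4-Cre transgene, which drives the recombinase in cells that have switched on Cd4. The WT group (3 libraries) came from littermates labelled as wild type, whose floxed and Cre alleles, like the age of all mice, the labels do not give. The Mettl14 protein works with Mettl3 as the enzyme that writes N6-methyladenosine (m6A) on RNA. Whether a library stands for 1 animal is not stated, so p-values reflect only how these libraries vary, some of which may be technical.

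PEPT2, the product of Slc15a2, sits in the plasma membrane and brings short peptides into the cell together with protons. It is known from kidney, choroid plexus and macrophages, where it also carries muramyl dipeptide and related fragments of bacterial cell wall that the cytosolic receptors NOD1 and NOD2 sense. PHT1 (Slc15a4) and PHT2 (Slc15a3) sit in the membrane of endosomes and lysosomes and release peptides and histidine into the cytosol. PHT1 also holds the adaptor TASL, through which Toll-like receptors of endosomes activate the transcription factor IRF5, chiefly in plasmacytoid dendritic cells, B cells and macrophages.

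Levels are reads scaled to library size (TMM-scaled CPM). Counts in genes ranged from 29500254 to 33377056 per library. Log2 fold changes are KO minus WT from edgeR, with the standard error (SE), and a gene is called at a Benjamini-Hochberg adjusted p under 0.05 over all 13039 genes tested. Double-positive markers summed to 17385 to 18287 CPM in KO and 16620 to 18556 CPM in WT, with 0 of 10 at 0. Mettl14 was at 39.6 ± 2.97 CPM in KO and 55.6 ± 3.37 CPM in WT (SD, n = 3 each), a change of -28.7%. It was not called (edgeR adjusted p = 0.289). Its KO libraries lay all below its WT libraries, an order found for 5.97% of genes tested. Deposited coordinates are on mm10.

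The m6A writer prefers a short motif, most often spelled GGACT in DNA letters, and the sites in the Slc15a2 transcript are shown because Mettl14 is the gene targeted. The longest coding transcript of Slc15a2 in GENCODE M21 has 3994 bases and its coding region runs from base 171 to base 2390. It holds 5 GGACT sites on the transcript strand, in capitals below, each with 10 bases on either side. The number in each name is the position of the first capital, counted from 1 at the 5′ end of the transcript.
Slc15a2 coding 742: gcagaggcacGGACTagatacttct
Slc15a2 coding 1171: ggctcacggtGGACTctgcaagcta
Slc15a2 coding 2088: ttctgtcacaGGACTtgaattttct
Slc15a2 3′ UTR 2724: taagtttggaGGACTcctttatcag
Slc15a2 3′ UTR 3622: gggaatattaGGACTatgtcatgtg
That is 1.25 sites per kb, against a median of 1.01 per kb over the longest coding transcripts of 21901 genes, and 63.9% of those genes had a lower rate. No site lay within 200 bases of the end of the coding region, where 36.4% of the genes have one. Slc15a3 and Slc15a4 also hold 5 sites each, or 2.13 and 1.83 per kb. Slc15a3 has 2 sites within 200 bases of the coding end and Slc15a4 has 1. Methylation itself was not measured in these libraries.

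Slc15a2 (ENSMUSG00000022899, chromosome 16, 36750178 to 36784962, minus strand) had 5589, 6063 and 458 reads in KO replicates 1 to 3, against 2728, 3718 and 122 reads in WT replicates 1 to 3. On the CPM scale these are 185, 205 and 14.2 in KO and 79.8, 113 and 4.17 in WT. Replicates 1 and 2 of both genotypes were high and replicate 3 of both was low. The groups overlapped, because KO replicate 3 lay below WT replicates 1 and 2. Among the libraries that share a replicate number, the KO library was the higher one each time. The ratios were 2.32 in number 1, 1.82 in number 2 and 3.41 in number 3. The labels state no pairing by number.

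The size of the genotype difference is a description, since it chose the gene. Over all 6 libraries the log2 fold change was 1.04 with an SE of 1.10. Within replicates 1 and 2 alone it was 1.02 with an SE of 0.17, with KO at 185 and 205 CPM and WT at 79.8 and 113 CPM. The authors' deposited table gives 1.25 with an SE of 0.19. Those deposited fold changes were matched within 0.001 for all 16448 genes by a DESeq2 fit with a 2-level block. Replicate 3 formed 1 level of that block and replicates 1 and 2 the other. A fit with no block matched 4080 genes, and a fit with a block on replicate number matched 4169. With the 2-level block, edgeR gave 1.22 with an SE of 0.19. The fold change over all 6 libraries also moved when single libraries were left out, to 1.58 without KO replicate 3, 1.68 without WT replicate 2, 0.61 without KO replicate 2 and 0.49 without WT replicate 3.

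The authors' deposited table calls Slc15a2 and neither Slc15a3 nor Slc15a4, where it calls 0.245% of 15491 genes as higher in KO. Slc15a2 is 9th by fold change among those 38 genes. The last gene inside that threshold, Klhl42, has an adjusted p of 0.0482 in the authors' deposited table, and the first outside it, Degs2, has 0.0537. In edgeR 0 of the 3 members were called, against 0.0383% of all genes tested (0.00767% as higher in KO), and all 3 had passed the filter on low counts. With the 2-level block edgeR also called 0 of the 3, against 0.0383% of all genes (0.00767% as higher in KO). As the rule used this contrast, neither count says anything about the family.

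**Figure D1:**
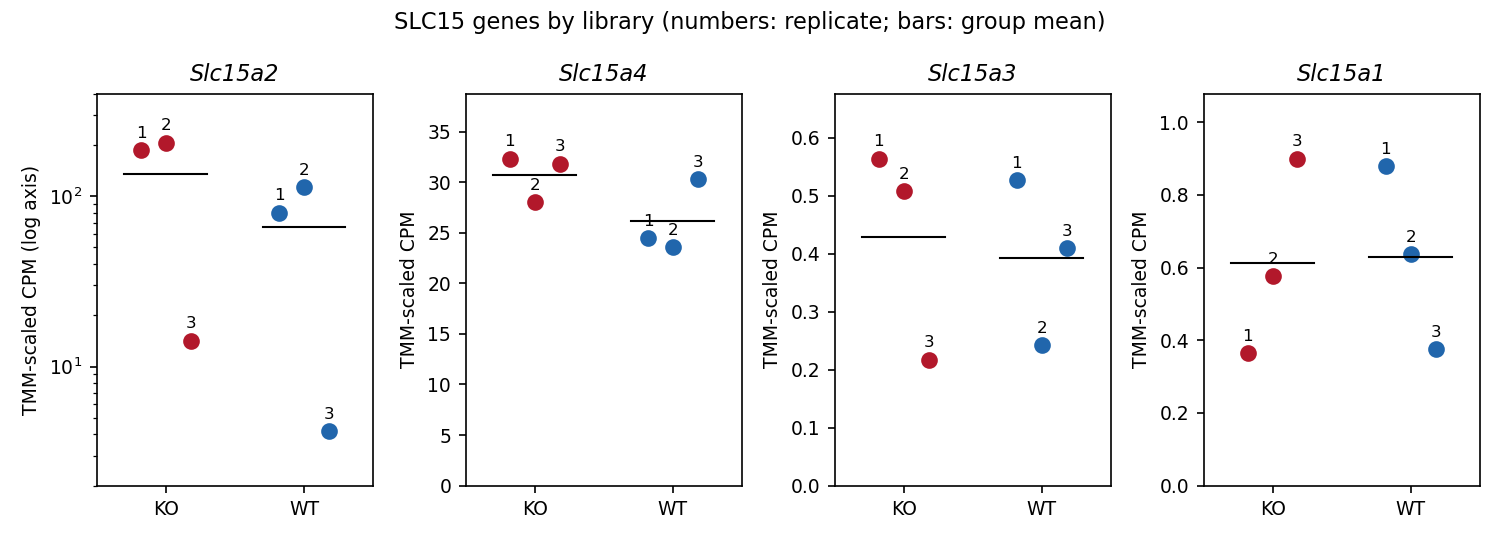
TMM-scaled CPM of 4 SLC15 genes in each of 3 KO and 3 WT libraries, numbered by replicate, with a bar at the group mean; the axis is logarithmic for Slc15a2 and starts at 0 for the others. Slc15a2 is low in replicate 3 of both genotypes, at 14.2 CPM in KO and 4.17 CPM in WT, while Slc15a4 spans only 23.6 to 32.3 CPM over all 6 libraries.

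The drop in replicate 3 was not used to choose the gene. Replicate 3 was 13.1 times below the lower of the other KO libraries and 19.2 times below the lower of the other WT libraries. Both replicate 3 libraries lay below the other 4 for 10% of genes tested and above them for 8.21%, so the order alone is common. They lay at least 1 log2 unit below the other 4, on the log2 CPM scale with a prior count of 2, for 6 genes, or 0.046% of those tested. Slc15a2 had the second widest gap of these, at 2.49 log2 units, after Hif3a at 3.89. The median absolute difference between the replicate 3 libraries and the other 4 was 0.12 log2 units over all genes, against 4.13 for Slc15a2, and 1 gene had a larger one. No label names a batch, date or litter for replicate 3. Counts in genes were 32334325 in KO replicate 3 and 29500254 in WT replicate 3, and the part of depth in the drop was not tested. All 6 libraries read as female, with Xist at 1772 to 2723 CPM and Ddx3y at 0.031 CPM or less.

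**Figure D2:**
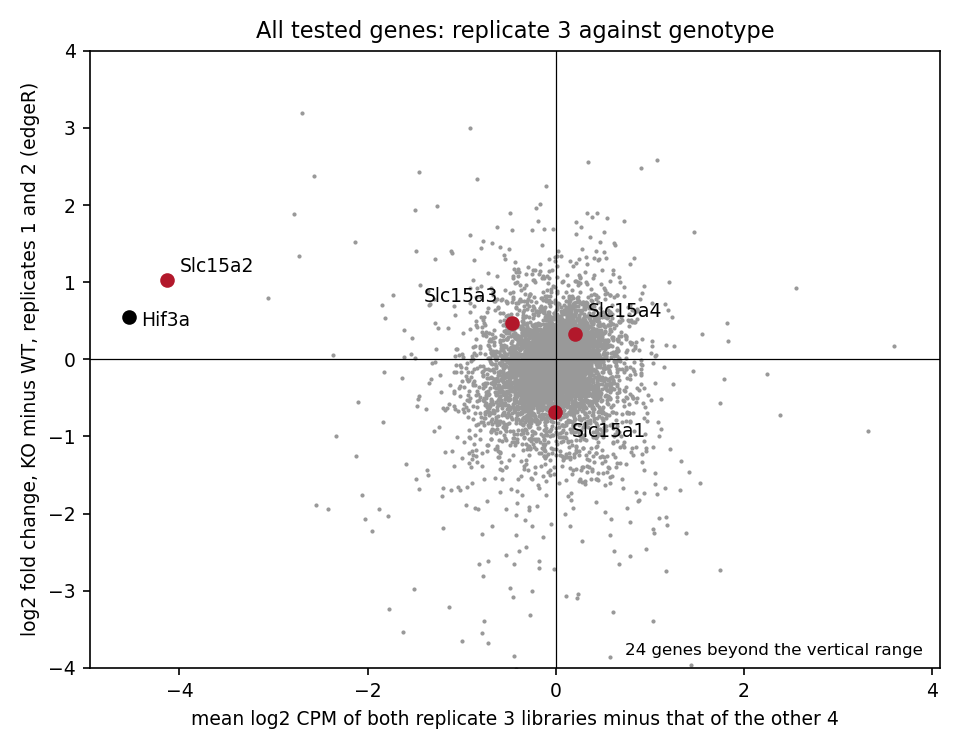
Each dot is 1 of 13039 tested genes, by the mean log2 CPM of both replicate 3 libraries minus that of the other 4 (horizontal) and by the edgeR log2 fold change, KO minus WT, within replicates 1 and 2 (vertical). Hif3a at -4.54 and Slc15a2 at -4.13 lie farthest to the left, followed by Eps8l1 at -3.05, while Slc15a1, Slc15a3 and Slc15a4 lie within the main cloud; 24 genes lie beyond the vertical range.

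The low level in replicate 3 was not seen in the 3 nearest tested coding genes on either side. Eaf2, Iqcb1 and Golgb1 lie 7.92 to 90.2 kb away at higher coordinates. Ccdc58, Fam162a and Wdr5b lie 658 to 707 kb away at lower ones, so that side has no tested coding gene close by. These 6 genes differed between the replicate 3 libraries and the other 4 by -0.21 to 0.34 log2 units. Eaf2, a partner of the ELL elongation factors whose annotated gene lies 7.92 kb away, was at 1.72, 1.96 and 2.11 CPM in KO and 1.76, 1.91 and 2.60 CPM in WT, so it was not low in replicate 3. Iqcb1, a protein of the cilium base, was at 15.4, 15.9 and 16.9 CPM in KO and 16.5, 16.5 and 15.1 CPM in WT, with overlapping groups. None of the 6 was called between genotypes, with log2 fold changes of -0.29 to -0.0004 and edgeR adjusted p of 0.770 to 0.999. The processed pseudogene Gm8425, which lies on the opposite strand within the gene, had 3 to 6 reads per library.

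**Figure D3:**
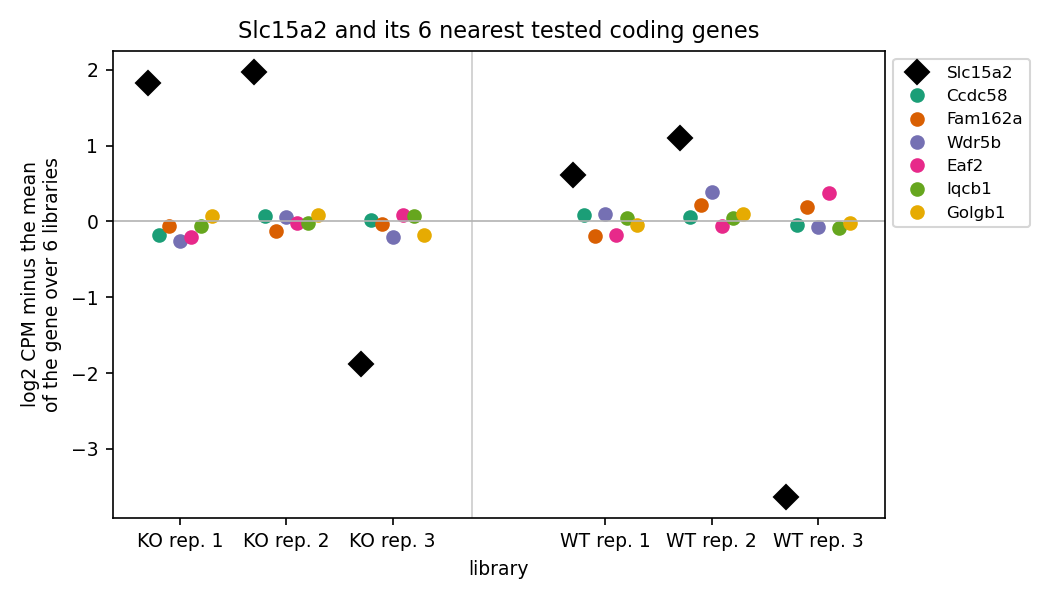
Log2 CPM of Slc15a2 (diamonds) and the 3 nearest tested coding genes on either side of it (circles). Each value is minus the gene's own mean over the 6 libraries, with KO libraries left of WT libraries. Slc15a2 spans -3.63 to 1.97 while the neighbours stay near 0 in every library.

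The sequence just upstream of Slc15a2 is shown because neither the replicate 3 drop nor the genotype difference was found in the neighbouring genes. RefSeq (GRCm38.p6) gives the following 250 bases before the gene's start, at chr16:36784963-36785212, minus strand, with motif matches in capitals.
Slc15a2 upstream: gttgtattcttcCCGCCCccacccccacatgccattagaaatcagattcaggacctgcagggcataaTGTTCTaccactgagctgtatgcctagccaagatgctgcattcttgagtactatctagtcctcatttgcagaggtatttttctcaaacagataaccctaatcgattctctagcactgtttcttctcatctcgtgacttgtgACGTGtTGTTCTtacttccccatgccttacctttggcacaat
Motifs were searched on both strands over the same 250 bases of 32851 RefSeq promoters. The window holds 1 GC box (GGGCGG, read here on the other strand), which 32.7% of promoters have. It holds 1 core of the hypoxia response element (ACGTG, 16.6% of promoters) and 2 glucocorticoid receptor half-sites (AGAACA, read here on the other strand, 16.1% of promoters). The hypoxia core and the nearer half-site begin 42 and 36 bases before the start and do not overlap. It holds no TATA box (TATAAA, 12.4%), E-box of E proteins (CAGCTG, 13.0%), E-box of MITF and TFE factors (TCACGTGA, 0.785%), nuclear receptor half-site (AGGTCA, 14.0%), interferon-stimulated response element core (2.98%) or cyclic AMP response element (TGACGTCA, 1.55%). The GC share of the window was 45.2%, with a median of 52.4% over all promoters. These matches are letters in a window and not measured binding.

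The genes most like Slc15a2 were ranked by the root mean square difference of log2 CPM over the 6 libraries, with each gene centred on its own mean, among 9545 genes whose average log2 CPM reached 1 or more. Hif3a, which encodes a hypoxia-inducible factor alpha subunit, was closest at 0.80 log2 units, where the median of the candidates was 2.07. A gene that did not vary over the 6 libraries would lie near that median. The distance also takes in the KO against WT contrast that chose Slc15a2. Hif3a was at 43.3, 106 and 2.14 CPM in KO and 53.4, 49.0 and 2.87 CPM in WT. It shared the replicate 3 drop and its genotypes overlapped. The next 4 stood at 1.43 to 1.46 log2 units. They were Cap2, which encodes an actin regulator, Igsf23, an immunoglobulin superfamily gene, Oas1a, which encodes an oligoadenylate synthetase induced by interferon, and Dhx34, which encodes a helicase of nonsense-mediated decay.

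Oas1a was at 13.2, 9.89 and 3.01 CPM in KO and 1.96, 3.88 and 1.78 CPM in WT, and its fold change was not called (1.77 on the log2 scale, SE 0.54, edgeR adjusted p = 0.630). Dhx34 was at 136, 185 and 64.8 CPM in KO and 131, 112 and 51.9 CPM in WT, low in replicate 3 of both (log2 fold change 0.39, SE 0.42, edgeR adjusted p = 0.869). Igsf23 was at 55.5, 47.8 and 15.3 CPM in KO and 37.7, 25.7 and 16.0 CPM in WT, again lowest in replicate 3 (log2 fold change 0.58, SE 0.46, edgeR adjusted p = 0.829). Cap2 was at 5.54, 18.4 and 8.40 CPM in KO and 14.7, 8.72 and 1.40 CPM in WT, and was lowest in WT replicate 3 and not low in KO replicate 3. Hif3a, Igsf23 and Dhx34 lie on chromosome 7 between 16197147 and 19950743, a stretch with 49 of the 9545 candidates, or 0.513%. This stretch was singled out after the values were seen.

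**Figure D4:**
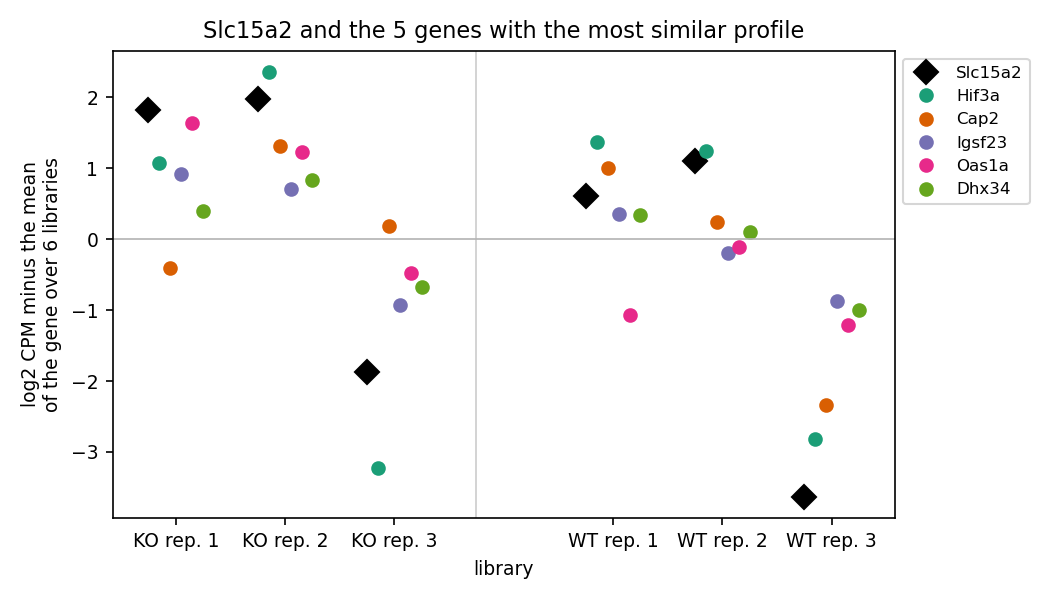
Log2 CPM of Slc15a2 (diamonds) and the 5 genes nearest to it in profile (circles), each minus its own mean over the 6 libraries, with KO libraries left of WT libraries. Hif3a follows Slc15a2 down to -3.23 in KO replicate 3 and -2.82 in WT replicate 3, and the other 4 vary less.

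Slc15a4 (ENSMUSG00000029416, chromosome 5, 127595664 to 127632897, minus strand) encodes the endolysosomal transporter PHT1. It was at 32.3, 28.0 and 31.8 CPM in KO and 24.5, 23.6 and 30.3 CPM in WT. KO libraries were mostly the higher ones, but WT replicate 3 lay above KO replicate 2. The log2 fold change was 0.24 (SE 0.12) and was not called (edgeR adjusted p = 0.763). In the authors' deposited table it has 0.25 and an adjusted p of 0.665. Within replicates 1 and 2 the log2 fold change was 0.33 (SE 0.12) and was not called either (edgeR adjusted p = 0.503). Glt1d1, a coding gene that overlaps the first 636 annotated bases on the opposite strand, had 0 reads in all 6 libraries. The nearest 3 tested coding genes on either side are Aacs, Bri3bp and Dhx37 at lower coordinates and Fzd10, Stx2 and Ran at higher ones. They lie 968 kb or more away, and none was called (edgeR adjusted p of 0.733 to 0.976). Fzd10, a Wnt receptor gene, had the largest log2 fold change of these 6, at 0.67, with 4.87, 3.25 and 6.26 CPM in KO and 3.01, 2.30 and 3.76 CPM in WT, which overlap.

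Slc15a3 (ENSMUSG00000024737, chromosome 19, 10839727 to 10859362, plus strand) encodes PHT2, which macrophages raise after interferon and Toll-like receptor signals. It was near the limit of detection, with 17, 15 and 7 reads in KO and 18, 8 and 12 reads in WT. That is 0.430 ± 0.186 CPM in KO and 0.393 ± 0.143 CPM in WT (SD, n = 3 each). The groups overlapped, and the log2 fold change of 0.12 (SE 0.48) was not called (edgeR adjusted p = 0.969). Tmem132a overlaps the end of the annotated gene by 1541 bases on the opposite strand and had 40 to 74 reads per library. How strand was set in the counting is not stated, so reads in that stretch cannot be told apart. Next to Slc15a3 lie Cd6, Cd5 and Vps37c at lower coordinates and Tmem109, Prpf19 and Ccdc86 at higher ones. Cd6, which encodes a T cell surface receptor and lies 9.67 kb away, was at 474, 442 and 428 CPM in KO and 489, 421 and 442 CPM in WT, so Slc15a3 was near 0 beside a gene with high counts. Neither these 6 nor Tmem132a was called, with log2 fold changes of -0.19 to 0.0022 and edgeR adjusted p of 0.763 to 0.997.

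Slc15a1 encodes PEPT1, the peptide transporter of the small intestine. It had 11, 17 and 29 reads in KO and 30, 21 and 11 reads in WT, with overlapping groups (log2 fold change -0.043, SE 0.45, edgeR adjusted p = 0.988). Slc15a5, the least studied relative, had 0 reads in all 3 KO libraries and in WT replicates 1 and 2 and 1 read in WT replicate 3. A count of 0 allows up to 3 reads, or 0.0878 to 0.102 CPM in the 5 libraries at 0, for counting error only.

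Levels of different genes were compared per kb of the gene length in the deposited count table. In replicates 1 and 2, Slc15a2 was the highest of the family, at 11.5 and 12.7 CPM per kb in KO and 4.96 and 6.99 CPM per kb in WT. Slc15a4 in the same libraries was at 2.58 and 2.24 CPM per kb in KO and 1.96 and 1.88 CPM per kb in WT. In replicate 3 the order was turned round, with Slc15a2 at 0.881 CPM per kb in KO and 0.259 CPM per kb in WT, and Slc15a4 at 2.55 CPM per kb in KO and 2.42 CPM per kb in WT. Slc15a1 and Slc15a3 stayed below 0.3 CPM per kb throughout. Slc15a1, at 0.117 to 0.288 CPM per kb, lay above Slc15a3, at 0.0272 to 0.0706 CPM per kb. How the deposited length was defined is not stated, and for Slc15a2 it is 16111 bases where the exons of GENCODE M21 cover 7361 bases. Per kb of the longest coding transcript, Slc15a2 was at 46.4 CPM in KO replicate 1, the order of Slc15a2 and Slc15a4 in each library was as above, and Slc15a1 (0.117 to 0.288 CPM) and Slc15a3 (0.0925 to 0.240 CPM) overlapped.

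The other genes of these pathways were taken as 8 lists holding 147 genes, of which 122 were tested. None of the 122 was called by edgeR, and 7 had an unadjusted p under 0.05 (5 higher and 2 lower in KO), or 5.74%, against 6.72% of all genes tested. DESeq2 called 0 of them. The median log2 fold change over all genes was -0.004.

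Of the genes for sensing bacterial peptides by NOD1 and NOD2, 22 of 22 were tested, 13 had a higher mean in KO, and the median log2 fold change was 0.023. Nod2, which senses the muramyl dipeptide that PEPT2 can carry, was at 3.25, 3.83 and 1.98 CPM in KO and 3.48, 4.15 and 1.61 CPM in WT. It was lower in both replicate 3 libraries than in the other 4, an order found for 10% of genes tested. By genotype Nod2 differed little (log2 fold change -0.033, SE 0.39, edgeR adjusted p = 0.990). Nod1, the other receptor, was at 3.61, 2.13 and 5.67 CPM in KO and 4.04, 2.88 and 3.69 CPM in WT, so it was not low in replicate 3 (replicate 3 minus the rest 0.56 log2 units; KO minus WT 0.11, SE 0.35, edgeR adjusted p = 0.962). Ripk2, the kinase below both receptors, was at 13.7, 15.1 and 13.1 CPM in KO and 12.6, 12.1 and 13.6 CPM in WT, with overlapping groups. Nod1, Nod2 and Ripk2 were picked for their roles. The lowest p of the list belonged to Erbin (0.11, SE 0.057, edgeR adjusted p = 0.762) and the ubiquitin ligase gene Birc3 (0.15, SE 0.093, edgeR adjusted p = 0.781).

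Of 19 genes of endosomal Toll-like receptor signalling, 14 were tested, with 10 higher in mean in KO and a median log2 fold change of 0.10. Unc93b1, which carries these receptors to endosomes, was at 3.25, 3.49 and 3.16 CPM in KO and 2.28, 1.69 and 1.81 CPM in WT, without overlap (log2 fold change 0.77, SE 0.21, edgeR adjusted p = 0.581). Cnpy3, a chaperone of Toll-like receptors, was lower in KO at 42.3, 44.4 and 40.7 CPM, against 55.9, 52.6 and 50.2 CPM in WT, also without overlap (-0.32, SE 0.075, edgeR adjusted p = 0.488). KO libraries lay all above WT libraries for 6.59% of genes tested and all below for 5.97%. Irf5, the factor that PHT1 and TASL serve and picked for that role, had 11 to 33 reads in KO and 20 to 37 reads in WT. Irf7, an interferon-induced factor, is the 1 gene of this list called in the authors' deposited table, at 0.62 with an adjusted p of 0.00522; in edgeR it had 0.63 (SE 0.19, edgeR adjusted p = 0.630).

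Proton pumps and exchangers supply the gradient these transporters use. Of 25 genes of the vacuolar ATPase, 18 were tested, with a median of 0.045. The lowest p was that of Atp6v0c, at 47.6 CPM in KO and 36.3 CPM in WT on average (0.39, SE 0.094, edgeR adjusted p = 0.488). Its counts are uncertain, since its copy Atp6v0c-ps2 was at 0.142 CPM in KO and 8.22 CPM in WT, and the sum of both was 47.7 ± 2.74 CPM in KO and 44.6 ± 3.82 CPM in WT (SD, n = 3 each). Atp6v0e followed with 0.15 (SE 0.064, edgeR adjusted p = 0.733). Of 12 sodium-proton exchangers and partners 8 were tested, with a median of 0.028, and Slc9a3, the exchanger that works beside peptide transporters in gut and kidney, had 0 reads in all 6 libraries. Slc9a3r1 (0.14, SE 0.066, edgeR adjusted p = 0.760) and Slc9a3r2 (-0.98, SE 0.53, edgeR adjusted p = 0.769), which encode scaffolds of exchangers, had the lowest p there.

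Lysosomal solute transporters (11 of 12 tested) had a median of 0.041. Slc36a4, an amino acid transporter, had the lowest p (-0.37, SE 0.13, edgeR adjusted p = 0.713). Slc66a1, a lysosomal exporter of basic amino acids, followed (0.17, SE 0.12, edgeR adjusted p = 0.802). Ragulator, Rag and mTORC1 genes, which read lysosomal amino acids (15 of 15 tested), had a median of 0.035, led by Rragd (0.33, SE 0.11, edgeR adjusted p = 0.690) and Mlst8 (0.23, SE 0.12, edgeR adjusted p = 0.763). Amino acid transporters of the plasma membrane (16 of 18 tested) had a median of -0.020. Slc43a2, a carrier of large neutral amino acids, was at 408, 371 and 402 CPM in KO and 331, 293 and 350 CPM in WT, without overlap (0.28, SE 0.083, edgeR adjusted p = 0.630), and Slc38a2 had 0.20 (SE 0.11, edgeR adjusted p = 0.769). Dipeptidases and aminopeptidases (18 of 24 tested) had a median of 0.019, led by Dpp8 (0.12, SE 0.063, edgeR adjusted p = 0.767) and Ctsc (0.20, SE 0.13, edgeR adjusted p = 0.790).

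**Figure D5:**
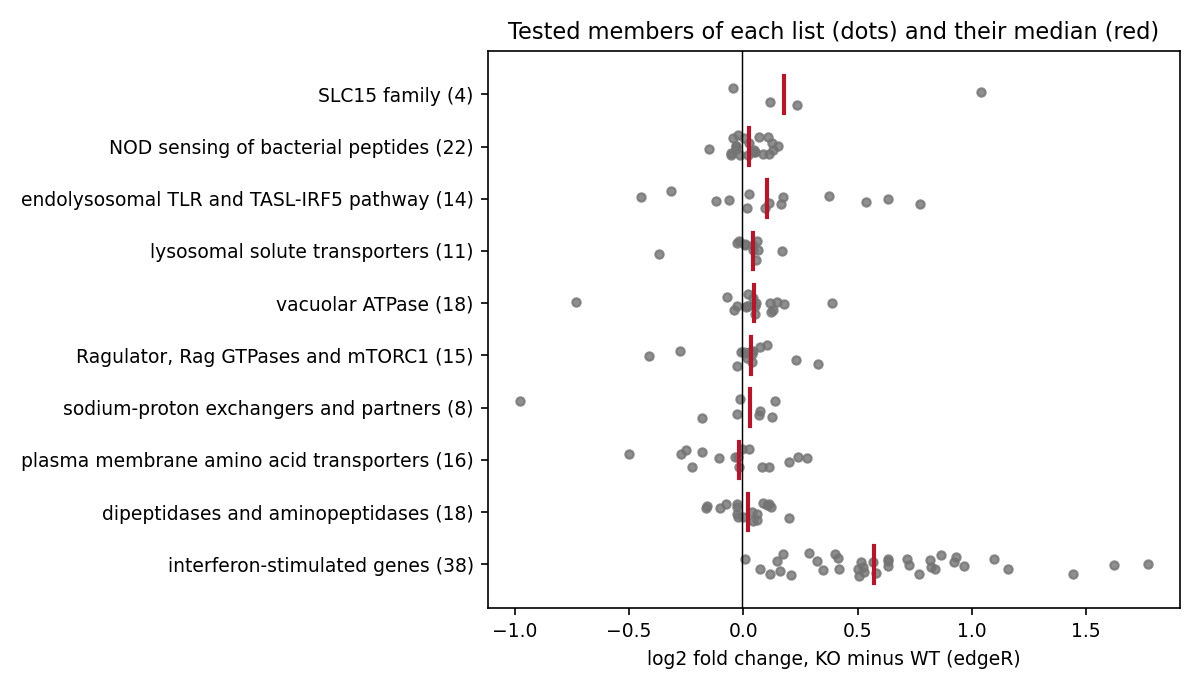
EdgeR log2 fold change, KO minus WT, of each tested gene (dots) in 10 gene lists, with the list median in red, the number tested in brackets and the median of all genes as a black line. The SLC15 dot at 1.04 (SE 1.10) is Slc15a2, which was chosen for its rise in KO, and 9 of the 10 list medians lie between -0.020 and 0.18.

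Interferon-stimulated genes had a median log2 fold change of 0.57 over 38 tested members, all 38 of them higher in mean in KO, against 48.9% of all genes tested. EdgeR called 0 of them (0.0383% of all genes), DESeq2 called 8 (0.733% of all genes) and the authors' deposited table calls 14 (0.762% of all genes). At an unadjusted p under 0.05 there were 23, all higher in KO, against 6.72% of all genes tested in either direction. Their summed level was 2219, 2321 and 1700 CPM in KO and 1564, 1717 and 1556 CPM in WT, so KO replicate 3 lay below WT replicate 2.

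Because PEPT2, PHT1 and PHT2 are abundant in myeloid cells, the markers of other cells that a sort can hold are given beside Slc15a2. Summed myeloid and dendritic markers (14 genes, Mertk and Xcr1 at 0) ranged from 91.0 to 122.8 CPM in KO and 87.5 to 93.8 CPM in WT, and plasmacytoid dendritic markers (10 genes, Cd300c at 0) from 58.8 to 71.2 CPM in KO and 56.2 to 59.5 CPM in WT. B cell markers (10 genes) ranged from 21.3 to 34.3 CPM in KO and 18.9 to 26.6 CPM in WT, and NK and gamma-delta markers (12 genes) from 48.2 to 59.9 CPM in KO and 30.3 to 46.2 CPM in WT. Double-negative thymocyte markers (14 genes) ranged from 548 to 722 CPM in KO and 460 to 494 CPM in WT, mature single-positive markers (10 genes) from 402 to 427 CPM in KO and 396 to 420 CPM in WT, and stromal markers (15 genes, Krt5, Foxn1 and Pdgfra at 0) from 160 to 174 CPM in KO and 162 to 190 CPM in WT. Red cell markers (7 counted, Slc4a1 at 0) stayed at 0.6 CPM or less. Their part in the genotype difference of Slc15a2 and in its low level in replicate 3 was not tested.

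The sums hide differences among single markers, given here against 48.9% of all genes tested with a higher mean in KO, 6.72% at an unadjusted p under 0.05, and a median log2 fold change of -0.004. Of the myeloid and dendritic list 7 genes were tested, 6 had a higher mean in KO and 2 had an unadjusted p under 0.05. The median log2 fold change was 1.34, but 0.47 within replicates 1 and 2. With 1 library left out it ranged from 0.38 (without KO replicate 3) to 1.83 (without KO replicate 1), and was 0.61 without KO replicate 2. Most of the myeloid and dendritic sum came from Cst3, at 58.3 CPM in KO and 52.8 CPM in WT on average. Itgam followed, at 22.5 CPM in KO and 26.5 CPM in WT. Cd74, the invariant chain of antigen-presenting cells, was at 2.42, 18.7 and 10.5 CPM in KO and 2.69, 5.15 and 3.52 CPM in WT, highest in KO replicates 2 and 3 (log2 fold change 1.48, SE 0.62, edgeR adjusted p = 0.733). The class II gene H2-Eb1 had the same highest libraries, at 0.464, 4.81 and 2.29 CPM in KO and 0.439, 1.27 and 0.683 CPM in WT (1.65, SE 0.75, edgeR adjusted p = 0.750). Lyz2, the lysozyme gene of myeloid cells, was at 0.497, 0.915 and 4.28 CPM in KO and 0.293, 0.727 and 1.06 CPM in WT, highest in KO replicate 3.

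Of the B cell list 5 genes were tested, 4 had a higher mean in KO, 2 had an unadjusted p under 0.05 and the median log2 fold change was 1.66, while Cd79b, at 20.9 CPM in KO and 18.9 CPM in WT on average, made up most of the sum. Cd79a, a part of the B cell receptor, was at 0.597 CPM or more in KO and 0.454 CPM or less in WT, without overlap. KO and WT did not overlap for the NK and gamma-delta sum, where 8 of 8 tested genes had a higher mean in KO, 5 had an unadjusted p under 0.05 and the median was 0.91. Gzma, at 43.8 CPM in KO and 34.3 CPM in WT on average, made up most of that sum, and its groups overlapped. DESeq2 called 2 genes of that list, and the authors' deposited table calls Tcrg-C1 and Tcrg-C2, constant segments of the gamma chain. KO and WT also did not overlap for the double-negative sum, where 6 of 9 had a higher mean in KO, 5 had an unadjusted p under 0.05 (4 higher and 1 lower) and the median was 0.35. Most of that sum came from Notch1, at 384 CPM in KO and 302 CPM in WT on average, and Notch3, at 136 and 98.7 CPM. Cd44 (log2 fold change -0.52), Lyl1 (-0.36) and Kit (-0.33) had a lower mean in KO. EdgeR called 0 genes of these 4 lists or of the stromal list, where 5 were tested and the median was -0.052. Pecam1, at 151 CPM in KO and 159 CPM in WT on average, made up most of the stromal sum. Only Pdgfrb (log2 fold change 1.01, SE 0.26, edgeR adjusted p = 0.540) and Epcam (0.56, SE 0.23, edgeR adjusted p = 0.733) had a higher mean in KO. For both, KO libraries lay all above WT libraries, as for 6.59% of genes tested. DESeq2 called 1 gene of the stromal list (0.733% of all genes). These marker genes were picked after their values were seen. In sorted bulk cells, fewer cells of a type and less RNA per cell cannot be told apart.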

How the data were processed

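The members and lists were chosen with earlier results of these data known. Tools named in the submitters' processing notes are HTSeq, DESeq2, STAR 2.5.2 and Trimmomatic 0.33, with the build mm10; the libraries were Illumina TruSeq, per the labels' protocols, and the strand setting is not given in the sources used here. What the authors deposited is a table of raw gene counts, a normalized signal (counts over a library's size factor), and the log2 fold changes, standard errors (with their statistic, a score) and p-values of their own DESeq2 fit. Rows naming no gene were left out: no_feature was 12.3% to 15.2% of counted reads, ambiguous 0.653% to 0.701% and several alignments 22.6% to 23.9%. Of 43430 identifiers, 42462 matched the name table.

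Genes were tested with edgeR 4.0.16 in R 4.3.3 (TMM, filterByExpr, quasi-likelihood on group alone, two-sided). The SE is the log2 fold change over the square root of F. DESeq2 1.42.0, limma-voom 3.58.1, other scalings, blocks and left-out libraries were alternatives. In simulated data for KO against WT, 200 of 13039 genes were changed and the replicate 3 libraries shared no shift. EdgeR recovered 32.8% of changed genes at 1.5-fold, 70.1% at 2-fold and 89.4% at 4-fold, and 10 of its 138 calls were false. The fit to the real libraries called 5 genes, so these shares need not hold for it. Replicates differed beyond sampling noise (chi-square over its degrees of freedom at least 16.1). The rule named all SLC15 genes, Mettl14, 2 genes per pathway list with the lowest p, 3 tested coding genes on either side of each member, and the 5 genes nearest to Slc15a2 in profile, leaving out pseudogenes, receptor segments, sex-linked genes and provisional names; others are stated. Of the lists, Tasl and Ahsp were not matched. Of 3 members, 2 matched the RefSeq promoter table.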

Additional observations from a re-analysis of the deposited data

How the results depend on the processing

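Slc15a2 was higher in KO under all 13 alternatives, with a log2 fold change of 1.01 to 1.24 under the 7 that change the scaling, filter, test, block or replicates 1 and 2 alone, and 0.49 to 1.68 with 1 library left out. Since this contrast chose Slc15a2 and the alternatives refit the same counts, its values here are a description and give no support. Slc15a4 was higher in KO under all 13 and called under none, at 0.21 to 0.33 under the first 7 (adjusted p from 0.503 to 0.844) and 0.17 to 0.36 with 1 library left out (adjusted p from 0.272 to 0.999). Slc15a3 was called under none and its sign was not stable: it ranged from 0.072 to 0.47 under the first 7 and from -0.14 to 0.45 with 1 library left out, being below 0 without KO replicate 1 (-0.12), KO replicate 2 (-0.011) or WT replicate 2 (-0.14); the cause was not tested. The number of genes called was 5; it was 110 with DESeq2, 30 with no filter on low counts, and 4 to 23 with 1 library left out (14 without KO replicate 2, 8 without WT replicate 1 and 23 without WT replicate 3); the cause was not tested. The sample labels state no pairing, but the authors' deposited fit is named as paired. Deviations correlated at -0.15, 0.080 and 0.19 for the same numbers 1, 2 and 3, and at -0.28 to 0.18 for differing numbers. The main fit did not pair the libraries, although both number 3 libraries depart together for Slc15a2. The block on replicate number is therefore given here, though it is not the block that matched the deposited fold changes. It left 5 genes called, with Slc15a2 at 1.24, Slc15a3 at 0.11 and Slc15a4 at 0.24. Depth limits Slc15a3 and Slc15a1, which rest on 7 to 30 reads per library. Of 234 list medians under these alternatives, 14 differed in sign from the main one.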

Other observations

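Genes higher in both replicate 3 libraries than in the other 4, named after their values were seen, include 3 from chromosome 8 between 69832491 and 71558871. Pbx4, a homeobox gene, was at 0.60, 0.51 and 6.17 CPM in KO and 0.32, 0.67 and 7.55 CPM in WT. Tmem221 was at 1.66, 2.10 and 8.52 CPM in KO and 1.23, 0.76 and 7.86 CPM in WT, and Comp at 0.70, 0.85 and 3.50 CPM in KO and 0.59, 0.73 and 2.05 CPM in WT. A gap of at least 1.5-fold between the replicate 3 libraries and the other 4, in either direction, was found for 47 of 13039 genes tested (0.360%), for 9 of 680 on chromosome 8 (1.32%), 5 of 963 on chromosome 7 (0.519%) and 1 of 403 on chromosome 16 (0.248%), where the 1 gene is Slc15a2.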
